A study of Mus musculus with 12 samples.

Results

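The 6 genes described here make, store, recover and break down acetylcholine: Chat, Slc18a3, Slc5a7, Ache, Bche and Slc10a4. They were read through every probe that carries one of these names in the scanner files, which gave 14 of the 56568 probes analysed and 6 of the 37306 gene names. Chat had 6 probes, Slc5a7, Ache and Bche had 2 each, and Slc18a3 and Slc10a4 had 1 each. Of the 14 probes, 11 were well above background on all 12 arrays, by the scanner's own call.

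The study set double knockout mice (DKO: ChatCre, a homozygous floxed gene, PS2-/-) against controls (Con: no Cre, the same homozygous floxed gene, PS2+/-), and took basal forebrain and cerebral cortex from each mouse. There were 3 DKO and 3 Con mice, 2 months old and labelled male, so each of the 4 groups (DKO basal forebrain, Con basal forebrain, DKO cortex, Con cortex) held 3 arrays. PS2 (Psen2) was deleted on both copies in DKO mice and on 1 copy in Con mice. Cre was named for Chat, so the floxed gene could recombine in cells that use Chat, and Con mice had no Cre. The tissue was whole, so fewer cells of a type and less RNA per cell cannot be told apart. The labels do not say how the Cre was placed relative to Chat.

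Choline acetyltransferase, the product of Chat, joins choline to the acetyl group of acetyl-CoA. The vesicular acetylcholine transporter (Slc18a3) then loads the transmitter into synaptic vesicles. After release, acetylcholinesterase (Ache) splits it in the synaptic cleft, and the high-affinity choline transporter (Slc5a7) returns the choline to the nerve ending. Butyrylcholinesterase (Bche) splits acetylcholine and other choline esters and is made largely by glia in the brain. Slc10a4 encodes an orphan vesicle protein found in cholinergic and monoaminergic neurons of rodents. The basal forebrain holds the cell bodies of the cholinergic neurons that innervate the cortex. Slc18a3 lies inside the Chat gene on the same strand, an arrangement known as the cholinergic gene locus.

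The probes are 60-base oligonucleotides, and their letters and genome positions show which stretch of each gene was read. Their place within a transcript was not annotated. Chat probe 2 (chr14:33267898-33271815, mm9, minus strand) and Chat probe 3 (chr14:33260120-33262143) each cross an intron, so each pairs with 2 exons of the mature mRNA. Ache probe 1 (chr5:137733122-137733181, plus strand), Bche probe 2 (chr3:73504577-73504636, minus strand) and Slc10a4 probe 1 (chr5:73404134-73404193, plus strand) each lie in 1 stretch of the genome. These 5 are shown whole, since the contrasts between probes of a gene and the steepest region difference rest on them.
Chat probe 2: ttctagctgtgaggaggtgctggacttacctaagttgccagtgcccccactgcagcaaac
Chat probe 3: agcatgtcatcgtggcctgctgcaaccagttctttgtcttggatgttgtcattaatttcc
Ache probe 1: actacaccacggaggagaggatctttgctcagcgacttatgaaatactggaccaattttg
Bche probe 2: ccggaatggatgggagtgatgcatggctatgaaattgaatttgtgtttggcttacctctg
Slc10a4 probe 1: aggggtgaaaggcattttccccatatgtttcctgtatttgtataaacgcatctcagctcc

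Chat probe 1 (chr14:33221421-33221480) is the brightest Chat probe and ends in a 23-base stretch of a repeated 4-letter unit, in capitals below. Slc18a3 probe 1 (chr14:33275627-33275686) and Bche probe 1 (chr3:73439735-73439794) hold AATAAA, the letters of the usual polyadenylation signal, also in capitals. Slc5a7 probe 1 (chr17:54413269-54413328) and Slc5a7 probe 2 (chr17:54413771-54413830) lie near each other on the minus strand. For these 5 probes 30 bases are shown, as the brightest probes of their genes and the second Slc5a7 probe read with them.
Chat probe 1: gctattcAGAAAGAAAGAAAGAAAGAAAGA
Slc18a3 probe 1: ccggcctgaattAATAAAccatatctgtct
Bche probe 1: atcatatgcacaaAATAAAaacttccttgt
Slc5a7 probe 1: gctcagtgccaaaatccaatttcattgtta
Slc5a7 probe 2: tcatggagtctcattcatactgtagacctt

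Chat probes 5 and 6 were designed on mRNAs that the array's annotation calls N2-type and N1-type. They share 24 bases and then part, as the capitals show over a 30-base window. Chat probe 5 spans chr14:33271862-33275151 and Chat probe 6 spans chr14:33274085-33275172, both across an intron.
Chat probe 5: ggaaggaagattgatGTCGGCAGCTCTGCT
Chat probe 6: ggaaggaagattgatTCAGTCAGTCGGGGC

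On each array 68.9% to 75% of probes were well above background, arrays of a group correlated at r = 0.985 to 0.995 over all probes, and 0 spots were saturated. Slide 1 carried the whole basal forebrain set of 6 plus cortex from DKO mice 1 and 2, and slide 2 carried cortex from DKO mouse 3 and from each Con mouse. Xist was well above background on all 4 arrays of DKO mice 1 and 3, which are labelled male, and on none of the other 8 arrays, so counts are also given without those mice. Psen2 probe 1 fell by 1.87 ± 0.16 on the log2 scale in DKO basal forebrain (SE, limma adjusted p = 0.0461) and by 2.12 ± 0.09 in DKO cortex (adjusted p = 0.000384). Genes of cholinergic identity were higher in basal forebrain than in cortex for 7 of 7 in both genotypes. The excitatory cortical neuron genes were lower there for 6 of 6 in both genotypes, with adjusted p under 0.05 for 6 in DKO and 5 in Con.

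The first question was whether DKO mice differed from Con mice in these genes. In basal forebrain, where the cholinergic cell bodies lie, 0 of the 12 member probes tested passed (adjusted p under 0.05 in limma over all 40492 probes tested, of which 0.0321% passed). At an unadjusted p under 0.05, which 3.95% of all probes had, the count was also 0, and the lowest adjusted p was 0.982. The median difference, DKO minus Con, was 0.08 on the log2 scale over the members and 0.01 over all probes tested. The DKO and Con basal forebrain arrays overlapped for each of the 12, and 9.72% of all probes did not overlap. In cortex 0 of 11 tested member probes passed, against 0.0102% of 39408 probes. There, 8 of the 11 differences were negative, several from probes of the same gene, with a median of -0.17 over the members and -0.04 over all probes tested. Unadjusted p was under 0.05 for 2 of the 11 and for 19.4% of all probes. The groups did not overlap for 1 of the 11 and for 22.7% of all probes. DKO mice 1 and 2 alone had cortex on slide 1, so genotype is largely mixed with slide in cortex.

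**Figure D1:**
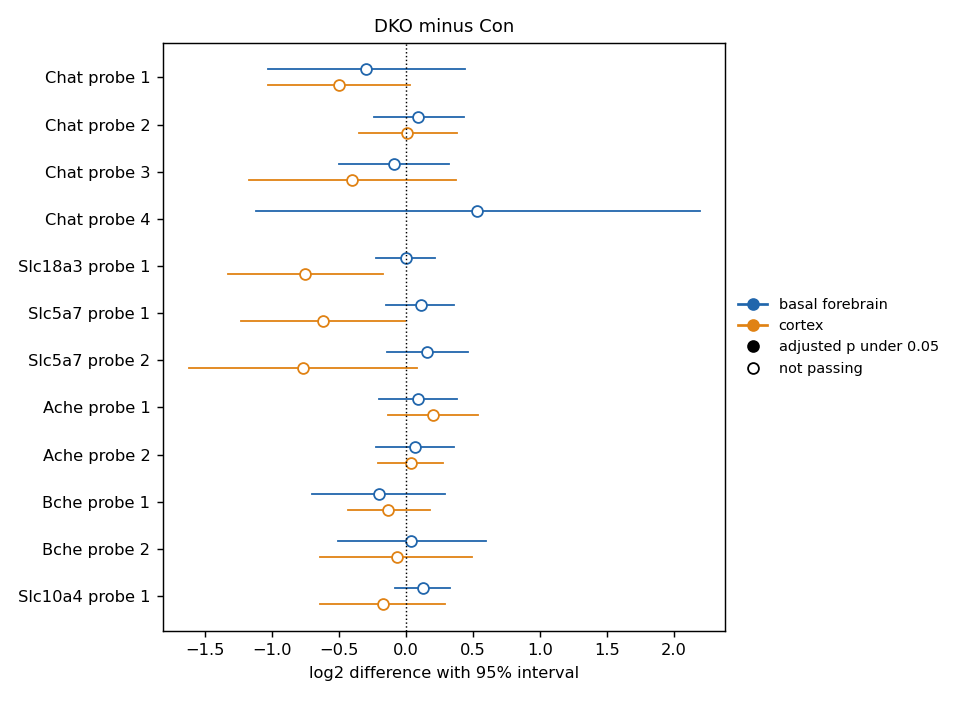
DKO minus Con for each tested member probe, as the log2 difference with its 95% interval, in basal forebrain (blue) and cortex (orange). Filled points would mark adjusted p under 0.05, and 0 are filled. The interval of Slc18a3 in basal forebrain runs from -0.22 to 0.22, and that in cortex from -1.33 to -0.17. In cortex genotype is largely mixed with slide.

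The second question was how the genes differ between the regions. Of the 12 tested member probes 10 were higher in DKO basal forebrain than in DKO cortex with adjusted p under 0.05, and 0 were lower. Chat probe 4, among the 10, entered only because it was above background in DKO basal forebrain, so its difference was in part chosen. Without it 9 of 11 were higher in DKO, with a median of 1.58. In Con mice 8 of 11 were higher and 0 were lower. Region differences are common on these arrays: 39.9% of all tested probes passed in DKO (21.4% as higher and 18.5% as lower) and 47.9% in Con (21.1% as higher and 26.7% as lower). The median over the members tested was 1.87 in DKO, Chat probe 4 included, and 1.7 in Con, against 0 and -0.03 over all probes tested. The same count of 10, Chat probe 4 included, was found when the DKO comparison was kept to slide 1, so that count too was in part chosen. In Con every basal forebrain array was on slide 1 and every cortex array on slide 2, and with slide as a block, which then rests on the DKO cortex arrays, 8 passed.

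**Figure D2:**
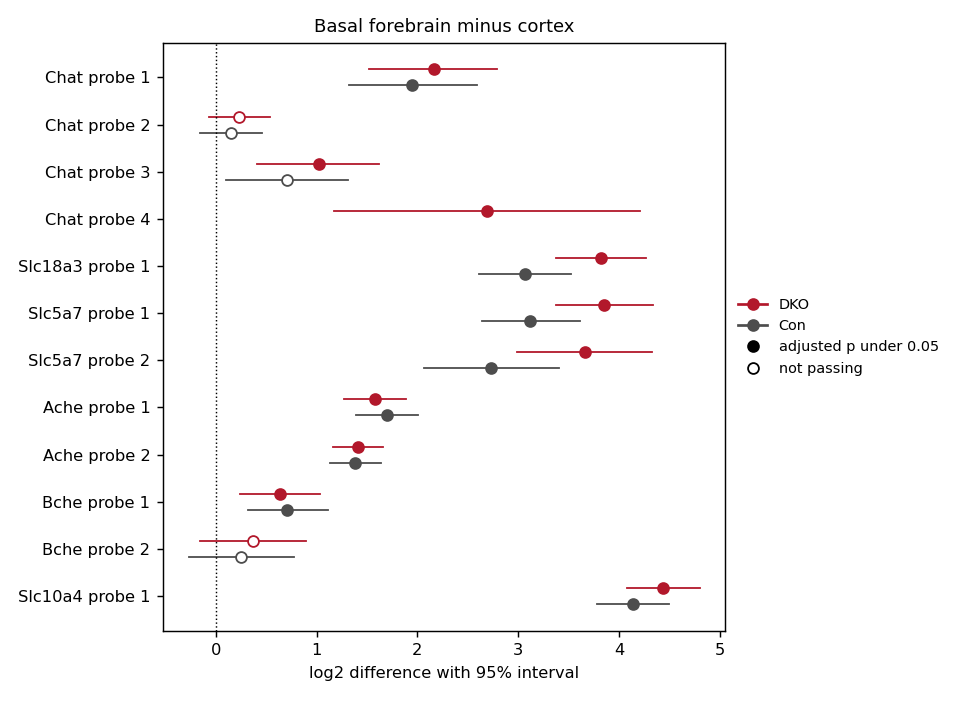
Basal forebrain minus cortex for each tested member probe in DKO mice (red) and Con mice (grey), as the log2 difference with its 95% interval. Filled points have adjusted p under 0.05. Slc10a4, Slc18a3 and Slc5a7 lie between 2.73 and 4.44 in both genotypes, and Chat probe 2 and Bche probe 2 are the unfilled pairs. Chat probe 4 was not well above background in cortex, so its point is not a measured fold.

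Synthesis was read through Chat. Chat probe 1 had levels of -0.08, 0.26 and -0.04 in DKO basal forebrain (mice 1, 2 and 3 in turn, as throughout), against 0.33, 1 and -0.30 in Con basal forebrain. These are levels in log2 units, where 0 is the 75th percentile of the array. The Con values lay on both sides of all 3 DKO values, and their SD was 0.65, against 0.18 in DKO. The difference, DKO minus Con, was -0.30 ± 0.31 (SE, adjusted p = 0.982), with an interval of -1.03 to 0.44. Without Con mouse 2 it was 0.03. In cortex the probe had levels of -2.33, -2.35 and -1.66 in DKO mice, against -1.55, -1.34 and -1.95 in Con mice. DKO mice 1 and 2 were the lowest of the 6 and DKO mouse 3 lay among the Con mice. The cortex difference was -0.50 ± 0.23 (limma unadjusted p = 0.0594, adjusted p = 0.267). DKO mice 1 and 2 were also the only mice with cortex on slide 1.

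Chat probe 1 was 2.16 ± 0.29 higher in basal forebrain than in cortex in DKO mice, or 4.47-fold (adjusted p = 0.000171). In Con mice it was 1.95 ± 0.29 higher, or 3.87-fold (adjusted p = 0.000322). The difference within a mouse ran from 1.62 to 2.61 in DKO and from 1.65 to 2.33 in Con.

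Chat probe 3, which crosses an intron, had levels of -4.76, -4.44 and -4.56 in DKO basal forebrain, against -5.77, -6.15 and -4.88 in DKO cortex. It was 1.02 ± 0.28 higher in DKO basal forebrain (adjusted p = 0.0126). That call was lost without DKO mouse 1 (1.02, adjusted p = 0.0508) and without DKO mouse 2 (0.67, adjusted p = 0.129), and with normexp background correction the difference was 0.26 (adjusted p = 0.0541). In Con basal forebrain its levels were -4.49, -4.35 and -4.64, against -5.18, -5.24 and -5.18 in Con cortex. The Con difference of 0.71 ± 0.28 had an adjusted p of 0.0528. It passed under 7 of 14 other settings, which ran from 0.13 with normexp correction (adjusted p = 0.264) to 1.78 with slide as a block (adjusted p = 0.00574). Chat probe 2, the other junction probe, lay between -4.35 and -3.93 on all 12 arrays. Its region difference was 0.23 ± 0.14 in DKO (adjusted p = 0.209) and 0.15 ± 0.14 in Con (adjusted p = 0.394). The 3 Chat probes above background everywhere thus gave region differences of unequal size, and probes 1 and 2 had a root mean square distance of 1.03 log2 units over the 12 arrays after each was centred.

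Chat probe 4 (chr14:33264152-33264211), designed on a cDNA clone from neonatal eyeball, was well above background on 3 of 3 DKO and 2 of 3 Con basal forebrain arrays. It was not well above background on any of the 6 cortex arrays (0). It was at least 1.84-fold higher in DKO basal forebrain than in DKO cortex, a bound set by the dimmest signal that the scanner called well above background on each cortex array. It entered the fit only through DKO basal forebrain, the group where it was high, so no p is given. In Con basal forebrain its levels were -5.99, -4.76 and -7.33, and the last, of Con mouse 3, was not well above background. Chat probe 5 (N2-type) was well above background on 2 of 12 arrays and Chat probe 6 (N1-type) on 0, so neither entered a test.

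**Figure D3:**
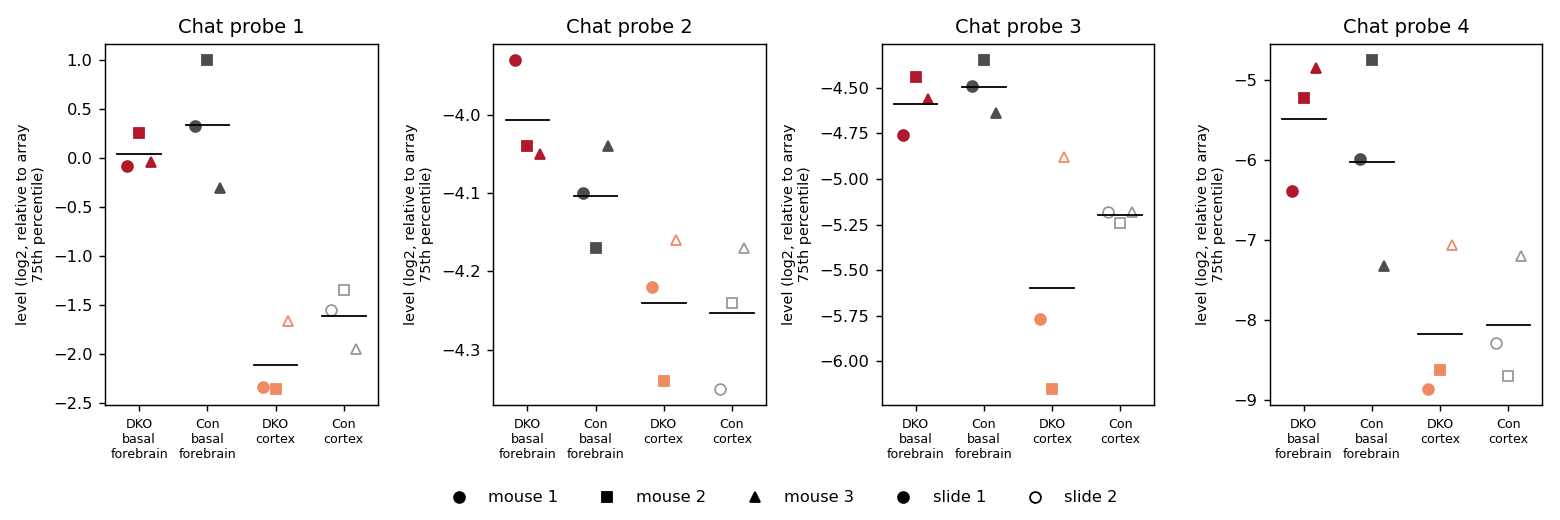
Level of Chat probes 1 to 4 on the 12 arrays, in log2 units relative to the 75th percentile of the array. Symbols are mice (numbered within each genotype), filled symbols are slide 1, open symbols are slide 2, and bars are group means. Probe 1 separates the regions, probe 2 spans only -4.35 to -3.93, and the cortex points of probe 4 are not above background.

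Vesicle loading was read through Slc18a3. Its levels were 1.33, 1.18 and 1.46 in DKO basal forebrain, against 1.24, 1.42 and 1.31 in Con basal forebrain. The groups overlapped, their means were 1.32 in both, and the difference was 0.00 ± 0.09 (SE, adjusted p = 0.999, interval -0.22 to 0.22). In cortex the values were -3.06, -2.47 and -1.96 in DKO, against -1.72, -1.64 and -1.88 in Con. All 3 DKO cortex values lay below all 3 Con values, a pattern shared as lower by 13.2% of the 39408 probes. The cortex difference of -0.75 ± 0.25 had an unadjusted p of 0.0175, which 19.4% of all probes also reached at under 0.05, and an adjusted p of 0.249.

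Within slide 2, which held DKO mouse 3 and the 3 Con mice, the Slc18a3 difference in cortex was -0.22 (adjusted p = 0.752), and with slide as a block -0.22 (adjusted p = 0.893). Without DKO mouse 3 the DKO cortex arrays were all on slide 1 and the Con arrays all on slide 2. The difference was then -1.02 (adjusted p = 0.00455), and 6 of the 11 member probes passed, 1 as higher and 5 as lower, along with 14471 of all 39998 probes. Without DKO mice 1 and 3, a single DKO array (mouse 2) stood against the 3 Con arrays, and its spread was taken to be that of Con. The difference was then -0.72 (adjusted p = 0.0132), with 5 member probes passing among 10985 of 40354. Slide and genotype cannot be told apart in either of these fits.

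Slc18a3 was 3.82 ± 0.21 higher in basal forebrain than in cortex in DKO mice, or 14.1-fold (adjusted p = 2.05e-07), and 3.07 ± 0.21 higher in Con mice, or 8.37-fold (adjusted p = 1.14e-06). Within a mouse the difference was 4.38, 3.65 and 3.43 in DKO, against 2.96, 3.05 and 3.18 in Con. Tested as an interaction (the basal forebrain genotype difference less the cortical one), the contrast between the genotypes was 0.75 ± 0.29 (unadjusted p = 0.0245, adjusted p = 0.576). With slide as a block it was 0.22 (adjusted p = 1.00). For that interaction 0 of 12 member probes passed, as did 0% of 41628 probes, and 2 had an unadjusted p under 0.05, which 8.19% of all probes had. Without DKO mouse 3, 1 member probe passed, Slc18a3, at 0.95 (adjusted p = 0.0447), along with 2186 of all 41787 probes.

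Choline uptake was read through Slc5a7. Slc5a7 probe 1 had levels of 1.43, 1.5 and 1.75 in DKO basal forebrain, against 1.4, 1.59 and 1.37 in Con basal forebrain. The difference was 0.11 ± 0.11 (adjusted p = 0.982). The cortical levels were -2.93, -2.16 and -1.80 in DKO, against -1.61, -1.57 and -1.84 in Con. DKO mice 1 and 2 were again the lowest, while DKO mouse 3 lay within the Con range. The cortex difference was -0.62 ± 0.26 (unadjusted p = 0.0464, adjusted p = 0.255), and within slide 2 it was -0.12 (adjusted p = 0.877). Without DKO mouse 3 it was -0.87 (adjusted p = 0.0165), with slide and genotype merged as above. Slc5a7 probe 2 gave -0.77 ± 0.37 in cortex (adjusted p = 0.277) and 0.16 ± 0.12 in basal forebrain (adjusted p = 0.982).

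Slc5a7 probe 1 was 14.5-fold higher in basal forebrain than in cortex in DKO mice (3.85 ± 0.22, adjusted p = 2.98e-07) and 8.72-fold higher in Con mice (3.12 ± 0.22, adjusted p = 1.58e-06). Probe 2 gave 3.66 ± 0.31 in DKO and 2.73 ± 0.31 in Con. Both probes passed in both genotypes, and their centred values lay 0.19 log2 units apart by root mean square over the 12 arrays.

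Slc10a4, the vesicle protein, had the largest region difference of the 6 genes. Its levels were 2.49, 2.38 and 2.58 in DKO basal forebrain, against -2.45, -1.66 and -1.77 in DKO cortex, and was 21.7-fold higher in basal forebrain (4.44 ± 0.16, adjusted p = 1.45e-08). In Con mice its levels were 2.25, 2.47 and 2.35 in basal forebrain, against -1.74, -1.76 and -1.85 in cortex, and was 17.6-fold higher (4.14 ± 0.16, adjusted p = 2.92e-08). By genotype the difference was 0.13 ± 0.09 in basal forebrain (adjusted p = 0.982) and -0.17 ± 0.20 in cortex (adjusted p = 0.617). Of the DKO cortex arrays mouse 1 alone lay below the Con range.

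**Figure D4:**
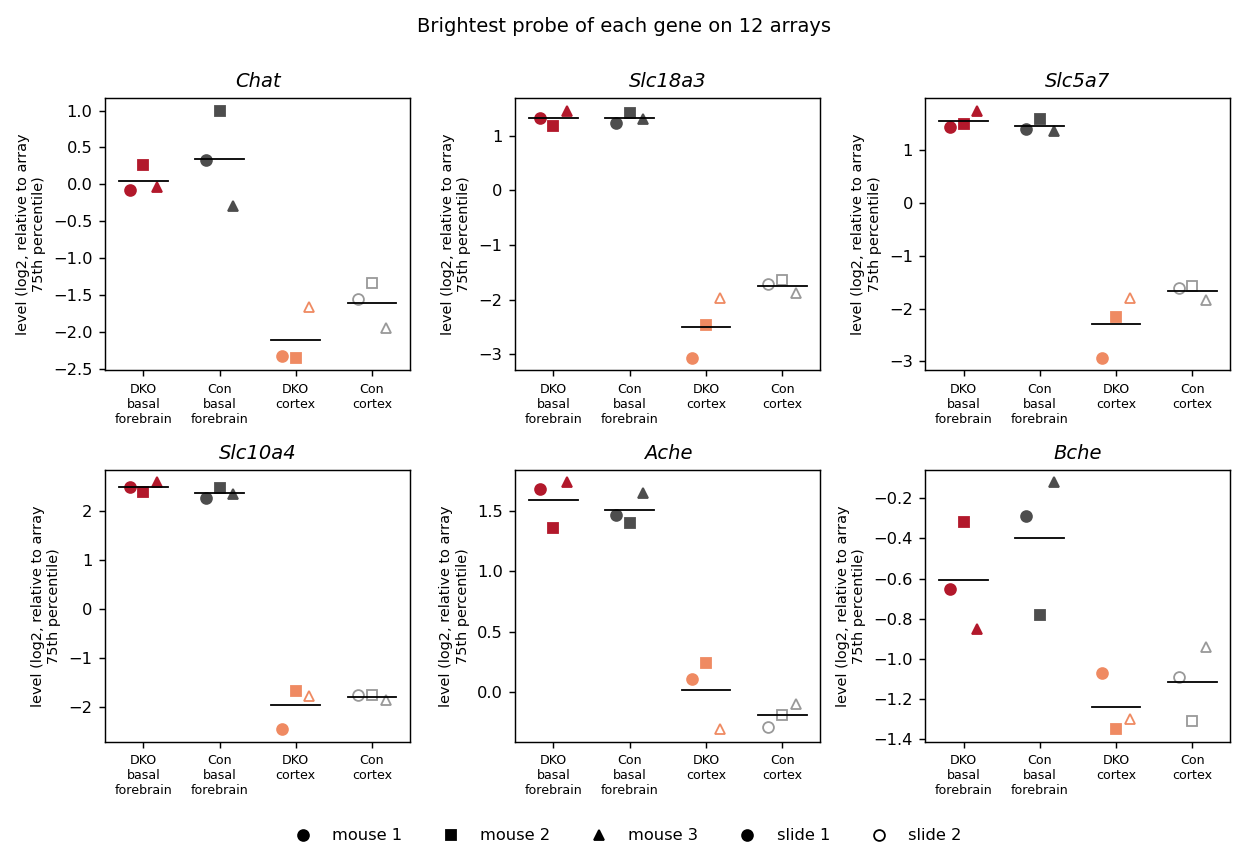
Level of the brightest probe of each gene on the 12 arrays, in log2 units relative to the 75th percentile of the array. Symbols are mice (numbered within each genotype), filled symbols are slide 1, open symbols are slide 2, and bars are group means. Slc18a3 in basal forebrain lies between 1.18 and 1.46 in both genotypes, while its DKO cortex values run from -3.06 to -1.96.

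Breakdown was read through Ache and Bche. Ache probe 1 had levels of 1.68, 1.36 and 1.74 in DKO basal forebrain, against 1.47, 1.4 and 1.65 in Con basal forebrain, a difference of 0.09 ± 0.12 (adjusted p = 0.982). The cortical levels were 0.11, 0.24 and -0.31 in DKO, against -0.29, -0.19 and -0.10 in Con. DKO mice 1 and 2, the lowest for the transporters, were here the highest, and DKO mouse 3 was the lowest. The cortex difference was 0.20 ± 0.15 (adjusted p = 0.417), and within slide 2 it was -0.12 (adjusted p = 0.835). Without DKO mouse 3 it was 0.37 (adjusted p = 0.0145), the 1 member probe that passed as higher in that fit. Ache was 2.99-fold higher in basal forebrain than in cortex in DKO mice (1.58 ± 0.14, adjusted p = 8.11e-06) and 3.25-fold higher in Con mice (1.70 ± 0.14, adjusted p = 5.17e-06). Ache probe 2 (chr5:137735513-137735572) gave 1.41 ± 0.12 and 1.38 ± 0.12, and both passed.

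Bche probe 1 had levels of -0.65, -0.32 and -0.85 in DKO basal forebrain, against -0.29, -0.78 and -0.12 in Con basal forebrain, and the ranges overlapped (difference -0.20 ± 0.21, adjusted p = 0.982). The cortical levels were -1.07, -1.35 and -1.30 in DKO, against -1.09, -1.31 and -0.94 in Con (difference -0.13 ± 0.13, adjusted p = 0.576). It was 1.56-fold higher in basal forebrain in DKO (0.64 ± 0.18, adjusted p = 0.0158) and 1.64-fold higher in Con (0.71 ± 0.18, adjusted p = 0.00789). These calls were lost without DKO mouse 2 (0.44, adjusted p = 0.157), without DKO mice 1 and 3 (1.04, adjusted p = 0.0803), without Con mouse 1 (0.67, adjusted p = 0.0702), and in Con with slide as a block (0.62, adjusted p = 0.316). Bche probe 2 lay between -5.65 and -4.56. It differed by 0.37 ± 0.24 between the regions in DKO (adjusted p = 0.244) and 0.25 ± 0.24 in Con (adjusted p = 0.403).

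For Slc18a3, Slc5a7 and Slc10a4 both basal forebrain groups were high and overlapped. The cortex means followed, with DKO below Con, and that step passed the test for 0 of the 3. For Slc10a4 it rested on DKO mouse 1, without which the difference was 0.07, and DKO mouse 2 lay above each Con value. For Ache the cortex means ran the other way, with DKO at 0.01 and Con at -0.19, also without passing. Averaged over both regions of a mouse, 0 of 12 member probes differed by genotype (0.118% of 41628 probes passed). The lowest adjusted p there was 0.464, for Slc18a3 at -0.37 ± 0.15.

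**Figure D5:**
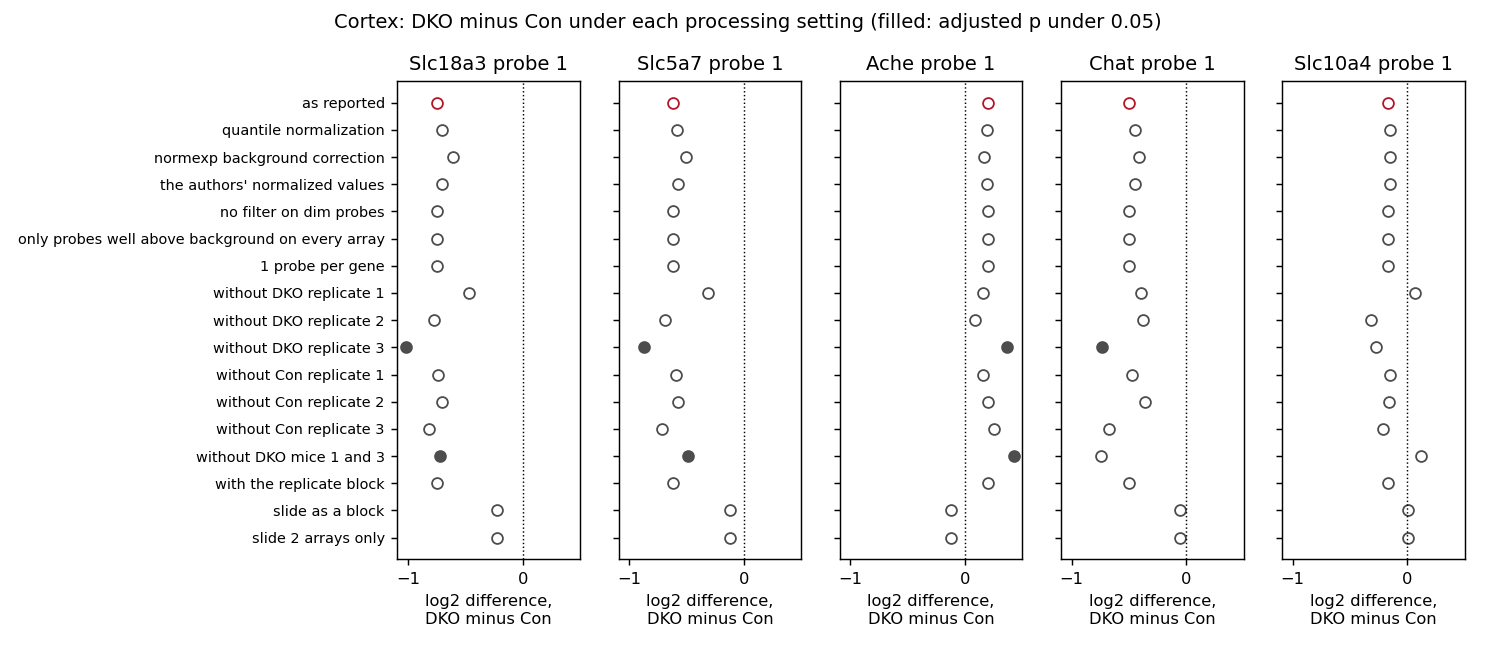
DKO minus Con in cortex on the log2 scale for 5 brightest probes, under the fit as reported (red) and each other setting (grey). Filled points have adjusted p under 0.05. Slc18a3 runs from -1.02 without DKO replicate 3 to -0.22 within slide 2, and Ache from 0.43 to -0.12.

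The markers of cholinergic neurons had cortex differences of the same sign as the transporters. All 7 identity genes had negative DKO minus Con differences there (median -0.59, against -0.04 over all probes), and 0 of 7 passed. Their mean level was -3.37, -2.88 and -2.58 in DKO cortex, against -2.45, -2.49 and -2.52 in Con cortex, with DKO mouse 1 lowest as for Slc18a3 and Slc5a7. Ngfr, the low-affinity neurotrophin receptor, differed by -0.85 ± 0.18 and Ecel1, a neuronal endopeptidase, by -0.59 ± 0.12 (both adjusted p = 0.249). Negative cortex differences were also found for 5 of 5 microglial genes (median -0.24), 5 of 6 oligodendrocyte genes (median -0.28) and 3 of 5 astrocyte genes (median -0.17). They were positive for 4 of 5 endothelial genes (median 0.30) and 5 of 5 choroid plexus genes (median 0.39), and 0 passed in these lists. DKO mice 1 and 2 had their cortex arrays on slide 1, while all Con cortex arrays were on slide 2. In basal forebrain all 7 differences of the identity genes were positive with a median of 0.14, and 0 passed. Their part in the member values was not tested. Between regions the 7 genes had medians of 3.94 in DKO and 3.15 in Con. Ngfr was 4.23 ± 0.16 and Lhx8, a transcription factor of cholinergic fate, 5.57 ± 0.33 higher in DKO basal forebrain (adjusted p = 1.73e-08 and 3.85e-07).

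Other tissue markers also moved with region. The striatal medium spiny neuron genes were higher in basal forebrain for 8 of 8 in both genotypes, with medians of 1.80 in DKO and 1.68 in Con. Their mean level ran from 4.27 to 4.48 in DKO and from 4.06 to 4.72 in Con basal forebrain, and from 2.25 to 2.81 in DKO and from 2.40 to 2.91 in Con cortex. Cholinergic interneurons also lie in striatum, and the part of striatal tissue in the region differences was not tested. Red cell, B cell and granulocyte genes moved with genotype. Over both regions 5 of 5 erythroid, 4 of 5 B cell and 4 of 5 granulocyte genes tested rose in DKO, against 0.0985% of all probes. Within a region fewer passed. B cell genes rose for 3 of 5 in basal forebrain and 1 of 5 in cortex, while 0 of 5 erythroid and 0 of 5 granulocyte genes passed in either. The mean level of the B cell genes ran from -3.51 to -2.94 in DKO and from -6.23 to -6.16 in Con basal forebrain. The erythroid genes ran from 1.62 to 3.29 in DKO and from -0.07 to 0.18 in Con basal forebrain, and 1 B cell and 1 erythroid gene were not well above background on any Con array there. By genotype 0 genes passed in either region or over both from the lists for striatal, VIP, septal and hypothalamic, thalamic and excitatory cortical neurons, glia, endothelium, choroid plexus, meninges and T cells. Of the member probes 0 passed by genotype in basal forebrain, and the part of blood cells in the member values was not tested.

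Genes that feed the pathway were read from fixed lists. Of the choline and acetyl-CoA supply genes, 0 of 20 tested passed by genotype in basal forebrain and 0 of 21 in cortex. The smallest p in cortex was that of Acss2, which makes acetyl-CoA from acetate, at -0.38 ± 0.13 (adjusted p = 0.249). Between regions 4 rose and 5 fell in DKO basal forebrain relative to cortex, and 5 rose and 6 fell in Con, of 21 tested in each. These shares lie near those of all probes given above. Slc25a1, the mitochondrial citrate carrier, was 1.16 ± 0.09 higher in DKO (adjusted p = 3.39e-06) and 1.05 ± 0.09 higher in Con (adjusted p = 7.76e-06). Acly, which cuts citrate to acetyl-CoA in the cytosol, was 0.40 ± 0.07 higher in DKO basal forebrain and 0.24 ± 0.07 higher in Con. Pnpla6, a lysophospholipase of choline lipid turnover, was 1.23 ± 0.18 lower in DKO and 1.42 ± 0.18 lower in Con.

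Prima1, which anchors acetylcholinesterase to brain membranes, was 1.23 ± 0.19 higher in DKO basal forebrain than in DKO cortex (adjusted p = 0.000425) and 1.08 ± 0.19 higher in Con. Colq, the collagen-like anchor of the neuromuscular junction, did not pass in either genotype (0.07 ± 0.24 in DKO, -0.60 ± 0.24 in Con). Of the 6 vesicle partners, 2 rose and 4 fell in DKO basal forebrain relative to cortex, and 1 rose and 4 fell in Con, against 18.5% and 26.7% of all probes lower. Sv2c, a vesicle protein, was 1.86 ± 0.09 higher in DKO and 2.01 ± 0.09 higher in Con, while Syt1, the calcium sensor of release, was 0.53 ± 0.08 lower in DKO and 0.52 ± 0.08 lower in Con. By genotype 0 of 6 passed in either region.

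The genes most like each member over the 12 arrays were taken by the root mean square difference of centred log2 levels, among named genes on 36425 probes well above background on every array. The arrays span both regions, so the size of the region difference weighs heavily in this distance. In DKO it was 3.82 for Slc18a3, 3.85 for Slc5a7 probe 1 and 3.94 for Isl1, against 2.16 for Chat probe 1. Nearness here thus does not show that genes vary together among mice. Slc18a3 and Slc5a7 were each other's nearest gene, 0.092 log2 units apart, followed for Slc18a3 by Isl1 at 0.172 and Ngfr at 0.221. For Slc5a7 Isl1 (0.145) and Nkx2-1 (0.215) followed. Isl1 and Nkx2-1 are transcription factors of the ventral forebrain. Near Slc10a4 lay Dgkk (0.276) and Prok2 (0.31). The cholinesterases lay among other genes: Itga9, Zfp618 and Evpl for Ache (0.121 to 0.134), and Fbln7, Gfap and Phldb2 for Bche (0.122 to 0.127). For Chat probe 1 the nearest were probes of Gad2 (0.218), Arhgef39 and Stk32a. Chat took place 97 among the genes nearest to Slc18a3, at 0.772, while Slc10a4 took place 22.

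Across the 6 mice of a region, 0 of 30 pairs of members correlated with an adjusted p under 0.05 (exact permutation test over 720 pairings, two-sided, adjusted over 30). In basal forebrain, all on slide 1, the lowest Pearson p was for Bche and Slc10a4, with Pearson's r = -0.85 (exact p = 0.0306, adjusted 0.183) and Spearman's rho = -0.89 (exact p = 0.0333, adjusted 0.200). Without the 2 mice farthest in Bche r was -0.84. The lowest Spearman p was for Slc5a7 and Bche, with rho = -0.94 (exact p = 0.0167, adjusted 0.167) and r = -0.80 (exact p = 0.0458, adjusted 0.201), and r was -0.32 without DKO mouse 3 and Con mouse 2. Slc18a3 and Slc5a7 had r = 0.71 there (exact p = 0.125, adjusted 0.286) and rho = 0.60 (exact p = 0.242, adjusted 0.518), and r = 0.88 without DKO mice 2 and 3. Chat and Slc18a3, which share a locus, had r = 0.13 (exact p = 0.812, adjusted 0.903) and rho = -0.03 (exact p = 1.00, adjusted 1.00), and r = -0.79 without Con mice 2 and 3. In cortex the smallest adjusted Pearson p of the 30 was that of Slc18a3 and Slc5a7. They had r = 0.99 (exact p = 0.00278, adjusted 0.0833) and rho = 0.94 (exact p = 0.0167, adjusted 0.167). There DKO mice 1 and 2, on slide 1, lay apart from the other 4, within which r was 0.93, so the value over 6 mice mixes the slides. Chat and Slc18a3 in cortex had r = 0.87 (exact p = 0.0139, adjusted 0.139) and rho = 0.89 (exact p = 0.0333, adjusted 0.200). Without DKO mice 1 and 2 their r was 0.73, and the value over 6 mice again mixes the slides.

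The 3 genes with the largest region differences and Chat are also shown by the 250 bases before their RefSeq start (GRCm38.p6), since Slc18a3 and Slc5a7 had the nearest levels over the arrays. The letters searched on both strands were TAATTA, bound by homeodomain factors, GGGCGG, the core of Sp-family sites, TATAAA and CCAAT, and matches are in capitals. Of 32851 promoters of this length 4.8% held TAATTA, 32.7% GGGCGG, 12.4% TATAAA and 33.8% CCAAT. Neighbouring GGGCGG matches can overlap.
Slc18a3 (chr14:32464851-32465100, minus strand): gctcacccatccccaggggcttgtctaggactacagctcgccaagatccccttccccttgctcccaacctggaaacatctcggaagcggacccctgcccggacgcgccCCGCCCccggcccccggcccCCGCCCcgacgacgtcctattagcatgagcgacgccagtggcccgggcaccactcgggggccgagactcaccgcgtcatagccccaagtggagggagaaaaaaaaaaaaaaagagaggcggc
Slc5a7 (chr17:54299035-54299284, minus strand): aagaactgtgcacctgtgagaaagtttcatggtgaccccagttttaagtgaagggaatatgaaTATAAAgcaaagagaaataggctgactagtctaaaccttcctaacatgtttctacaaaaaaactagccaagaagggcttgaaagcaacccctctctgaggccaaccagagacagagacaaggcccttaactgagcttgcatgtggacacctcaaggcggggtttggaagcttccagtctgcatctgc
Slc10a4 (chr5:73006654-73006903, plus strand): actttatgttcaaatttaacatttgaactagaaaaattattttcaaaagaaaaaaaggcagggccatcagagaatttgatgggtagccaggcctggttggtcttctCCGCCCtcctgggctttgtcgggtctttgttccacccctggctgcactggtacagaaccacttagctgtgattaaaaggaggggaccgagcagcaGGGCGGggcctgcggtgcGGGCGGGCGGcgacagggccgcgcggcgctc
Chat (chr14:32465910-32466159, minus strand): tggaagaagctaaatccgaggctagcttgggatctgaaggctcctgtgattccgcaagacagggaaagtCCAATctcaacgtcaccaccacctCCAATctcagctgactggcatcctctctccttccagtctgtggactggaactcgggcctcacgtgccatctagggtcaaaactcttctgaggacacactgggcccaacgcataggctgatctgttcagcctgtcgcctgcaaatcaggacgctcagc

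The Slc18a3 window held 2 matches to GGGCGG and the Slc10a4 window 4, while the Chat and Slc5a7 windows held 0. Slc5a7 held 1 TATAAA and Chat held 2 CCAAT. Of the 4 windows 0 held TAATTA. The windows differed in base composition, with 66.0% G and C for Slc18a3, 45.6% for Slc5a7, 54.4% for Slc10a4 and 54.8% for Chat, against a median of 52.4% over all promoters. Slc18a3 and Slc5a7, the pair whose levels were nearest, had 0 of the 4 motifs in common.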

How the data were processed

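RNA of 12 samples was hybridised in 1 colour to Agilent SurePrint G3 mouse arrays. Per the file headers, Agilent Feature Extraction 10.7.1.1 wrote a background-subtracted, detrended processed intensity per spot, not scaled between arrays. The authors also deposited normalized log2 values, whose sorted values are identical on all 12 arrays; the sources used here do not give how these were made, and they served as an alternative. That table's 12 columns of detection flags were not used.

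Log2 intensities of a probe's unflagged spots were averaged (37 probes left out, 56568 analysed) and the 75th percentile of the array over probes was subtracted. A probe entered a comparison if some group of it had the probe well above background in all 3 mice. Differences were tested with limma 3.58.1 in R 4.3.3 (lmFit, eBayes with trend=TRUE) and adjusted by Benjamini-Hochberg over all probes entering. Genotype was fitted within a region on that region's 6 arrays and over both as 6 mouse means, and the region comparisons and interaction on all 12. Levels are never compared between probes. The labels tie the regions of a mouse to each other (r of their deviations -0.13 to 0.41), so the mouse was tried as a block. Replicates are separate mice, and their number limits precision.

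The members, lists and tests were chosen with earlier results of these data known. Every member probe is described. The brightest probe stands for its gene, up to 3 nearest genes per member are named, and up to 4 genes of a list by smallest p (2 where none passed). Probe positions are mm9, from the files, and promoters come from RefSeq. The fits were tested on simulated data. Alternatives were other normalizations, filters, left-out mice, the replicate block and slide. Results for the floxed gene and for 1 gene near Slc10a4 are not reported here.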

Additional observations from a re-analysis of the deposited data

How the results depend on the processing

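No genotype count of passing member probes left 0 under other normalizations, filters or the replicate block, and the region counts stayed within 1.5 times, with these exceptions. In cortex 6 passed without DKO replicate 3 and 5 without DKO mice 1 and 3 (1 DKO mouse, assumed to vary like Con), and for the interaction 1 passed without DKO replicate 3 (range 0 to 6 in cortex and 0 to 1 for the interaction over the left-out mice). In DKO the region count was 6 of 6 with 1 probe per gene. Numbers do not pair DKO with Con mice (r of deviations -0.54 to 0.5 in basal forebrain); the replicate block gave 0 in each genotype comparison, and with the mouse as replicate block 10 in DKO and 8 in Con, as without it.

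Signs of differences that did not pass as reported turned as follows. By genotype the list covers the brightest probe of each gene, and by region every probe. Without DKO mice 1 and 3, basal forebrain DKO minus Con was -0.15 for Ache and 0.08 for Bche, cortex was 0.12 for Slc10a4, both regions gave 0.08 for Slc10a4, and the interaction was 0.32 for Bche and -0.10 for Slc10a4. With slide as a block or within slide 2, cortex was -0.12 for Ache and 0.01 for Slc10a4, both regions gave 0.12 for Slc10a4 and 0.09 for Slc5a7, and the interaction was 0.21 for Ache and -0.25 for Chat. Left-out mice moved Chat in basal forebrain from -0.62 to 0.03, the interaction of Chat from -0.02 to 0.48, of Ache from -0.35 to 0.11 and of Bche from -0.28 to 0.03, Slc10a4 in cortex from -0.32 to 0.07 and over both regions from -0.09 to 0.10. By region, Chat probe 2 was -0.07 in DKO under quantile normalization and the authors' values and -0.07 in Con under normexp, where Bche probe 2 was -0.08. Among the other probes, 57 genotype or interaction results turned sign, 263 stayed the same and 4 came to pass. Chat probe 3 in cortex ran from -0.95 to 0.32, and Bche probe 2 over both regions from -0.16 to 0.14. The causes were not tested. With 3 mice a group, 45 of 100 simulated 2-fold changes were recovered in basal forebrain. That simulation also held 100 changes of 2 log2 units, of which 80 were recovered, while 13 of 40492 probes passed on the real arrays. The Benjamini-Hochberg threshold loosens as more probes pass, so the simulated share can overstate recovery on the real arrays.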

Other observations

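Chat probe 1 ends in a repeat, and it varied more among Con basal forebrain arrays than Slc18a3 did (SD 0.65 against 0.09). After these values were seen, the array was searched for 4 repeats in a row of the unit AGAA (16 letters), and 6 probes held it, those of Pvrl4, Siglech, AI790442, Syne2 and Coro2a beside Chat, all above background on 12 arrays. The level of Con mouse 2 minus that of Con mouse 3 in basal forebrain was 1.3 for Chat and 0.60 to 1.24 for the other 5 (median 0.80), against a median of -0.05 over 36425 probes above background, of which 12.7% reached 0.60 or more. Chat probe 3, which holds no such repeat, was also higher in Con mouse 2 (-4.35) than in Con mouse 3 (-4.64), while Chat probe 2 was lower (-4.17 against -4.04). Chat probe 4, also without the repeat, was at -4.76 in Con mouse 2 and was not well above background in Con mouse 3. The part of the repeat in the Chat values was not tested.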
